A study of Mus musculus with 4 samples.

Results

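The core circadian clock genes of mouse islets were compared at low and high glucose. The group held 10 genes, namely *Arntl*, *Clock*, *Per1*, *Per2*, *Per3*, *Cry1*, *Cry2*, *Nr1d1*, *Nr1d2* and *Dbp*, among 28047 distinct transcripts in the deposited table. They were chosen by gene symbol, and where a symbol had several entries the one with the highest mean stood for the gene. Male wild type C57bl6 mice of 3 months gave the whole islets, which were pooled, cultured overnight at 11 mM glucose and starved for 2 h at 2.8 mM glucose. Islets were then kept at 2.8 mM or at 16.8 mM glucose, with 2 RNA-seq libraries at each concentration. The 16.8 mM libraries were collected after 12 h. For the 2.8 mM libraries, the series' design text and the methods also give 12 h, whereas the sample labels give 2 h, and this conflict was not resolved. If the sample labels hold, the groups were collected 10 h apart, so that for genes of the clock a difference in glucose and a difference in time of collection cannot be told apart. The islets were pooled before culture and nothing says that the libraries came from separate mice, so p-values measure only the spread between these libraries.

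The clock is a feedback loop that runs in nearly every cell, islet cells included, and its loss in beta cells is known to impair insulin secretion. ARNTL (also called BMAL1) and CLOCK form a pair that binds E-boxes and switches on the *Per* and *Cry* genes, the nuclear receptors *Nr1d1* and *Nr1d2* (REV-ERB alpha and beta) and *Dbp*. PER and CRY proteins then inhibit that pair, while the REV-ERB proteins repress *Arntl* through the ROR response element, to which the activating ROR receptors also bind. DBP acts on a further kind of site, the D-box. Transcripts of direct E-box targets such as *Dbp* and *Nr1d1* therefore peak at another time of day than *Arntl*.

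At 16.8 mM glucose *Dbp*, *Nr1d2*, *Nr1d1* and *Cry2* were lower, with *Dbp* at 35.7% of its value at 2.8 mM, *Nr1d2* at 47.4%, *Nr1d1* at 57.0% and *Cry2* at 74.1%. These 4 were the genes past the test among the 6 of the 10 clock genes that could be tested, and none of the 6 passed as higher (limma on log2(RPKM + 0.5), adjusted p under 0.05). Among all 7867 transcripts tested 33.4% passed, 22.8% lower and 10.7% higher at 16.8 mM. *Arntl* had a higher value, at 150% of its level at 2.8 mM, and *Per1* stood at 125%. *Per1* did not pass, and *Arntl* was among the 4 genes with a mean under 1 RPKM over the libraries, which were not tested in this fit. The remaining 4 genes stood between 55.6% (*Per3*) and 94.7% (*Clock*).

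Letters that match the binding motifs of the loop were looked up near the starts of these genes. RefSeq promoter windows (build GRCm38.p6) of 300 bases, from 250 before to 50 after a start, were matched for 9 of the 10 genes by symbol, with 13 windows in all. *Per2* had none. They were searched on both strands for the E-box CACGTG, the cAMP response element TGACGTCA, the D-box TTACGTAA or TTATGTAA and the ROR response element. No match overlapped another, and 4 of the 9 genes had a window with a match. The bases before the start are printed below in lower case with each match in capitals. *Dbp* is shown because it fell the most, and *Per1*, *Per3* and *Cry1* because their windows hold a match, a choice made after the search. *Dbp* (chr7:45704997-45705246, plus strand) has no match in this window, *Per1* (chr11:69098699-69098948, plus strand) and *Cry1* (chr10:85185055-85185304, minus strand) hold an E-box, and *Per3* (chr4:151044666-151044915, minus strand) holds 2 D-boxes. For *Arntl* (chr7:113207528-113207556, plus strand) the bases around the ROR response element are given.
Dbp: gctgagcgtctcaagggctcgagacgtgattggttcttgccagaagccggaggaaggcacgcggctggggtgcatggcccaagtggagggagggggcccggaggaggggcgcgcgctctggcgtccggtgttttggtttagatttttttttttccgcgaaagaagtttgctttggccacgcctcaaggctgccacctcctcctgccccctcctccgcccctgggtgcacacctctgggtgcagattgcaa
Per1: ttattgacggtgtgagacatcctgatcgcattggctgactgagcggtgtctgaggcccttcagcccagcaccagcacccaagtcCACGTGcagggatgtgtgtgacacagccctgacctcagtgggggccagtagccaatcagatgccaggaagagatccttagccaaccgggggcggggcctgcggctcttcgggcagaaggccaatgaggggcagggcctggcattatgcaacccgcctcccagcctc
Per3: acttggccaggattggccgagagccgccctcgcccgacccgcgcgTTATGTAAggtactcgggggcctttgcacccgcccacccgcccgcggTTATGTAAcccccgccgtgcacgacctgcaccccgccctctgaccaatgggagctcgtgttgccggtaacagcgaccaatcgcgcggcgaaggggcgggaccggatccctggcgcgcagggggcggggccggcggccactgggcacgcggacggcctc
Cry1: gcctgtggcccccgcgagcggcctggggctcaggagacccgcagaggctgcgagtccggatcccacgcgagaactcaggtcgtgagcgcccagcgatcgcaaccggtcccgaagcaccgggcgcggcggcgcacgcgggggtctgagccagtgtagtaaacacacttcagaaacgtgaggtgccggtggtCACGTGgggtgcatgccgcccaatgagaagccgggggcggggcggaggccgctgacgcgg
Arntl: ggaaggcagAAAGTAGGTCAgggacggag

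Counted from the start, the E-box begins at base -166 of *Per1* and at base -60 of *Cry1*, the D-boxes begin at bases -205 and -158 of *Per3*, and the ROR response element spans bases 27 to 37 after the second annotated start of *Arntl*. An E-box occurs in 7.17% of 32544 distinct promoter windows of all genes, a D-box in 1.05%, a ROR response element in 0.384% and a cAMP response element in 1.80%. No window of the 9 genes held a cAMP response element. A match describes the letters of the window and not binding, which was not measured here.

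Depth and sample identity were checked across the table. The steps between low values gave depths of 50810000 to 60720000 reads in a library. Among the low genes, between 79.7% and 81.6% of values were whole reads (within 0.1 read) when length was taken as the genomic span, introns included, against 15.9% to 17.6% over exons. Each RPKM (reads scaled for length in kilobases and for depth) is therefore read here as a density over the whole gene, which is low for a gene with long introns. The depths had been refined on genes of this kind by their spans, and no depth was fitted for exons. The shares over spans and over exons were thus not scored on equal terms. Taken back to reads over the longest annotated coding span, every clock gene held at least 523 reads in each library. The islet hormones were high in each library, with *Ins2* between 15943 and 30018 RPKM and *Gcg* between 1474 and 2155 RPKM. The 5 beta cell markers summed to 19044 and 21279 RPKM at 2.8 mM and to 37866 and 40835 RPKM at 16.8 mM. These sums are almost wholly *Ins1* and *Ins2*, since *Mafa*, *Slc2a2* and *Ucn3* each held no more than 76.2 RPKM in a library. In limma 4 of the 5 passed as higher, against 10.7% of all transcripts tested, and *Slc2a2* was higher without passing (adjusted p = 0.061). Of the markers of other islet cells (alpha, delta and PP) and of duct, endothelial, leukocyte and stromal cells, none of those tested passed. Only 1 marker each of duct, endothelial, leukocyte and stromal cells was tested. In the fit to reconstructed reads given below (voom), *Pecam1* (adjusted p = 0.0018), *Cdh5* (0.0093), *Sst* (0.0051) and *Krt19* (0.0024) passed as higher. The others of these types did not, and 13.5% of all transcripts fitted passed as higher. All 6 exocrine markers passed there too. In the first limma fit, to RPKM values rather than reads, none of the 6 exocrine markers passed. They summed to 95.2 and 274 RPKM at 2.8 mM and to 230 and 477 RPKM at 16.8 mM. Their sum was higher in replicate 2 at either concentration. Each of the 6 was also higher at 16.8 mM than at 2.8 mM within each replicate number, and all 6 passed when the number entered the fit as a block (limma adjusted p from 0.0096 to 0.032), as did the duct marker *Krt19* (0.020). None of the markers was at 0 in all libraries. The part of these shifts in the values of the clock genes was not tested, and in whole islets fewer cells of a type and less RNA per cell cannot be told apart.

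**Figure D1:**
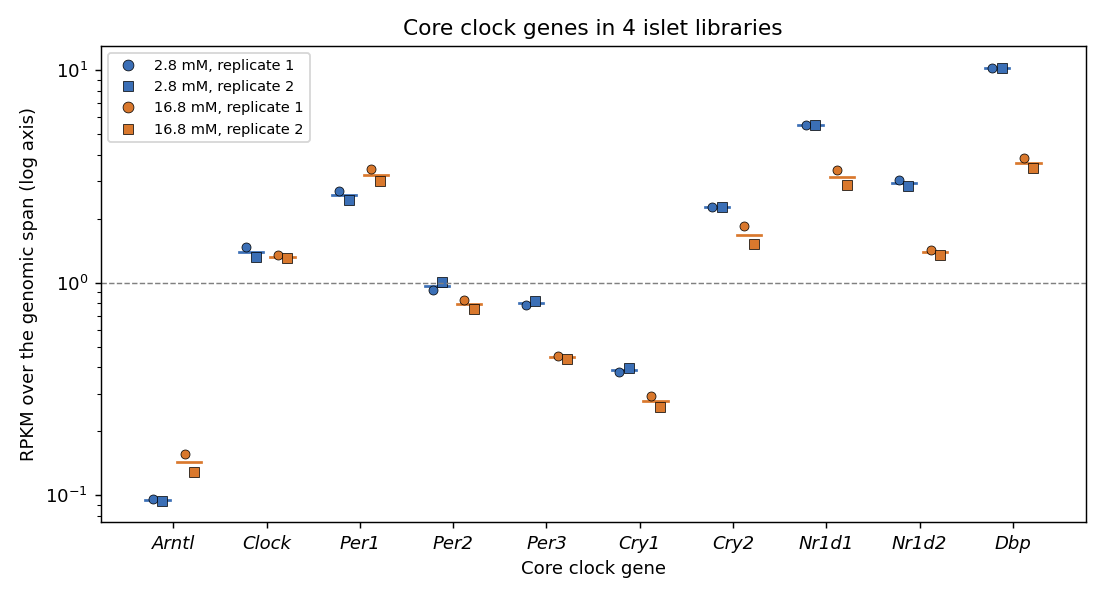
RPKM over the genomic span (log axis) of the 10 core clock genes in the 2 libraries at 2.8 mM glucose (blue) and the 2 at 16.8 mM (orange), with short lines at the group means and a dashed line at the minimum mean of 1 RPKM for the test. *Dbp* stands highest at 2.8 mM, near 10.2 RPKM, and drops to between 3.48 and 3.84 RPKM, while *Clock* overlaps between the concentrations.

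*Dbp*, the D-box activator and one of the transcripts with the widest daily swing in many tissues, held 10.3 and 10.2 RPKM in replicates 1 and 2 at 2.8 mM glucose and 3.84 and 3.48 RPKM at 16.8 mM. Both libraries at 16.8 mM lay far below both at 2.8 mM, which were nearly alike. Taken as log2(RPKM + 0.5), the scale of all changes given below unless another is named, the difference was -1.37 (SE 0.10, limma adjusted p = 3.8e-04). *Dbp* lies on the plus strand of chromosome 7 (52960458 to 52965525, NCBI build 37), and its last 689 bp, 13.6% of its span, overlap the end of *Sphk2* on the other strand. *Sphk2*, a sphingosine kinase, fell as well, from 14.2 and 13.6 RPKM to 5.04 and 5.11 RPKM (-1.37 on the log2 scale, limma adjusted p = 3.8e-04). The sources used here do not say if reads were counted by strand, so those of the shared stretch cannot be told apart. With the *Sphk2* reads that even coverage of its exons would place there taken off, a calculation added after the values were seen, *Dbp* at 2.8 mM kept 1670 of 3044 reads in replicate 1 and 1519 of 2692 in replicate 2, while at 16.8 mM it kept 674 of 1181 and 465 of 895. The log2 ratio of the means was then -1.51, against -1.49 with all reads. *Sphk2* changed by nearly as much as *Dbp*, and its total may itself hold *Dbp* reads of the shared stretch. The calculation could therefore hardly move the ratio and does not show which gene the shared reads came from.

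The REV-ERB receptors both fell. *Nr1d2*, on chromosome 14 (19036568 to 19071641), held 3.03 and 2.84 RPKM at 2.8 mM and 1.43 and 1.35 RPKM at 16.8 mM, which is -0.86 on the log2 scale (SE 0.08, limma adjusted p = 7.8e-04). Its paralog *Nr1d1*, on chromosome 11 (98629246 to 98636647), held 5.52 and 5.50 RPKM at 2.8 mM and 3.40 and 2.88 RPKM at 16.8 mM. On the log2 scale *Nr1d1* changed by -0.73 (SE 0.11, limma adjusted p = 0.0035). For both receptors the groups were clearly apart, and the 16.8 mM libraries of *Nr1d1* were less alike than its 2.8 mM libraries. The end of *Nr1d1* overlaps 1075 bp of *Thra*, the thyroid hormone receptor alpha gene on the other strand, whose own values were 1.19 and 1.10 RPKM at 2.8 mM and 0.564 and 0.535 RPKM at 16.8 mM. With the reads of *Thra* taken off in the same way, the log2 ratio for *Nr1d1* moved from -0.81 to -0.70. Here too the total of *Thra* may hold *Nr1d1* reads of the shared stretch.

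The ROR receptors compete with the REV-ERB proteins for the same element. *Rora* had values of 0.725 and 0.687 RPKM at 2.8 mM and 0.384 and 0.356 RPKM at 16.8 mM, under the minimum for the test. *Rorb*, best known from the nervous system, held no more than 0.0035 RPKM in a library.

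The cryptochromes, which are the strongest inhibitors of the ARNTL and CLOCK pair, were lower at 16.8 mM by a smaller margin. *Cry2*, on chromosome 2 (92243803 to 92274200), held 2.27 RPKM in both libraries at 2.8 mM and 1.84 and 1.52 RPKM at 16.8 mM. The change on the log2 scale was -0.35 (SE 0.10, limma adjusted p = 0.033), and the median over all tested transcripts was -0.11. This call was lost without replicate 1 at 2.8 mM (adjusted p = 0.080), without replicate 2 at 2.8 mM (0.065) and without replicate 2 at 16.8 mM (0.17). A non-coding gene on the other strand, *D930015M05Rik*, covers 77.0% of the span of *Cry2*, with values of 1.27 and 1.33 RPKM at 2.8 mM and 1.06 and 0.905 RPKM at 16.8 mM, and without strand the reads of the pair cannot be told apart. *Cry1*, on chromosome 10 (84594447 to 84647799), held 0.379 and 0.396 RPKM at 2.8 mM against 0.294 and 0.260 RPKM at 16.8 mM. Its mean was under the minimum for the test, although the groups did not overlap.

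The 3 period genes differed in direction. *Per1*, which also responds within minutes to cAMP and glucocorticoids in many cells, lies on chromosome 11 (68908719 to 68919960) and held 2.71 and 2.45 RPKM at 2.8 mM and 3.41 and 3.02 RPKM at 16.8 mM. The log2 fold change of 0.27 (standard error 0.10) had an adjusted p of 0.079 (limma), so the higher level did not pass. It passed after median centring of the libraries (0.35 on the log2 scale, adjusted p = 0.0073), where 47.9% of all transcripts passed, 21.1% higher and 26.7% lower. A second entry of *Per1* had a difference of 0.26 on the log2 scale and did not pass (limma adjusted p = 0.077). *Per2*, on chromosome 1 (93312561 to 93355907), whose protein forms the inhibitory complex with the CRY proteins, held 0.926 and 1.01 RPKM at 2.8 mM and 0.830 and 0.755 RPKM at 16.8 mM. For *Per3*, on chromosome 4 (150377761 to 150418774) and the least needed of the family for rhythm itself, the values were 0.782 and 0.821 RPKM at 2.8 mM and 0.454 and 0.437 RPKM at 16.8 mM. The gap in *Per3* was many times the spread within either group, while that in *Per2* was small. Both means were under the minimum for the test, and the differences between the 3 genes were not tested.

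Of the activators, *Clock* showed no difference beyond the spread between libraries and *Arntl* had the highest ratio of the 10 genes. *Clock*, on chromosome 5 (76639992 to 76733817), held 1.47 and 1.32 RPKM at 2.8 mM and 1.34 and 1.30 RPKM at 16.8 mM, and the groups overlapped. The change on the log2 scale was -0.06 (SE 0.08, limma adjusted p = 0.62), and it turned to 0.03 when libraries were centred on their medians. *Arntl*, on chromosome 7 (120350979 to 120457636), held 0.0956 and 0.0944 RPKM at 2.8 mM and 0.157 and 0.129 RPKM at 16.8 mM. Both of its libraries at 16.8 mM were above those at 2.8 mM, but each value is smaller than the 0.5 RPKM added before the log2, so the fold change on that scale was only 0.11. *Npas2*, the paralog of *Clock* that can take its place, held 0.027 and 0.0289 RPKM at 2.8 mM and 0.0446 and 0.049 RPKM at 16.8 mM. The paralog of *Arntl*, *Arntl2*, held 0.0874 and 0.0887 RPKM against 0.144 and 0.0956 RPKM, with the 16.8 mM libraries far apart.

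*Arntl*, *Cry1*, *Per2* and *Per3* have low densities over spans of 41.0 to 107 kb, and their reads are not few. Reads of *Arntl* numbered 596 and 523 at 2.8 mM and 1016 and 699 at 16.8 mM, and those of *Per3* 1874 and 1749 against 1131 and 910. A fit to the reconstructed reads (limma's voom method, for means of 20 reads or more) therefore could include all 10 genes. It passed 9 of them, 7 lower and 2 higher, against 42.3% of all 17468 transcripts fitted, 28.8% lower and 13.5% higher. In this fit the change on the log2 scale of reads was 0.59 for *Arntl* (SE 0.13, adjusted p = 0.0018) and 0.32 for *Per1* (SE 0.11, adjusted p = 0.024). Those of the period and cryptochrome genes without a test above were -0.84 for *Per3* (adjusted p = 7.8e-06), -0.48 for *Cry1* (adjusted p = 0.0031) and -0.28 for *Per2* (adjusted p = 0.033), each from voom. *Clock* did not pass (adjusted p = 0.53 from voom). When the minimum was dropped from the fit to log2(RPKM + 0.5), 9.13% of all 28047 transcripts passed, 6.17% lower and 2.96% higher. The clock genes past the threshold were then *Dbp*, *Nr1d2*, *Nr1d1* and *Per3*, the last with an adjusted p of 0.037 (limma). *Arntl* had an adjusted p of 0.11, *Cry1* of 0.080 and *Per2* of 0.15 there, and *Cry2* no longer passed (0.12).

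Groups did not overlap for 9 of the 10 genes, 7 lower and 2 higher, where 70.3% of the transcripts with 20 reads or more on average had groups without overlap, 46.8% lower and 23.5% higher. The median absolute log2 fold change over all tested transcripts was 0.23, and relative to the median of -0.11 the changes were -1.26 for *Dbp*, -0.75 for *Nr1d2* and -0.61 for *Nr1d1*, against -0.24 for *Cry2*. The median over the 6 clock genes tested was -0.54, which leaves out the 4 of low density.

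**Figure D2:**
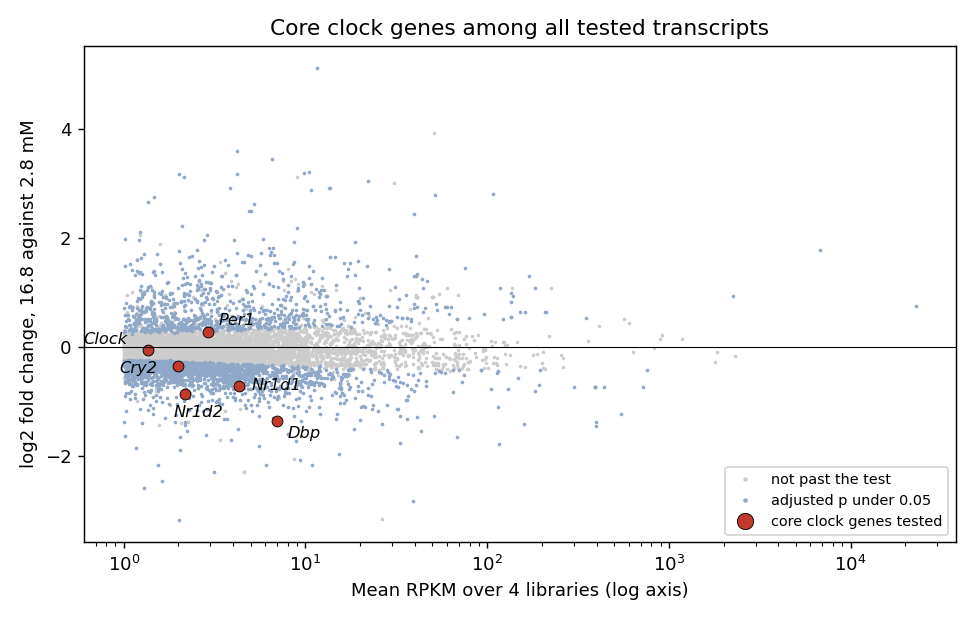
Log2 fold change (16.8 mM against 2.8 mM glucose) against mean RPKM over the 4 libraries (log axis) for the 7867 transcripts tested, with those at an adjusted p under 0.05 in blue and the 6 tested clock genes as red circles. *Dbp* at -1.37 lies lowest of the 6, and *Clock* at -0.06 lies among those that did not pass.

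At 2.8 mM glucose the order of the densities was *Dbp*, *Nr1d1*, *Nr1d2*, *Per1*, *Cry2*, *Clock*, *Per2*, *Per3*, *Cry1* and *Arntl*, and no neighbours in it overlapped. At 16.8 mM *Per1*, at 3.21 ± 0.28 RPKM (SD, n = 2), had moved ahead of *Nr1d1*, at 3.14 ± 0.37 RPKM (SD, n = 2), and the libraries of the pair overlapped. These densities are over the genomic span. If all reads of a span are assigned to its exons, a scaling added after the values were seen, the levels were closer together, between 3.49 (*Arntl*) and 29.0 (*Dbp*) RPKM over exons at 2.8 mM. On this exon scale *Nr1d2*, at 22.1, stood second at 2.8 mM and *Clock* had the highest level at 16.8 mM, at 14.3, followed by *Cry2* at 12.9. *Nr1d2*, *Dbp* and *Per1* came next at 10.5, 10.4 and 10.3, so that the 2.8 mM lead of *Dbp* was gone. Whether reads in introns were counted, and at what share, is not known.

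The wider clock list held 24 further genes, of which 11 reached the minimum for the test. Of these, 2 fell and 1 rose at 16.8 mM glucose, where 33.4% of all transcripts tested passed, 22.8% lower and 10.7% higher, so the 3 are no larger a share than in the table as a whole. The D-box factor *Tef*, a relative of *Dbp*, fell from 4.85 and 4.49 RPKM to 2.67 and 2.56 RPKM (-0.73 ± 0.09 on the log2 scale with its SE, limma adjusted p = 0.0021). *Ciart*, an inhibitor of the ARNTL and CLOCK pair that is itself an E-box target, fell from 2.83 and 3.29 RPKM to 1.64 and 1.36 RPKM (-0.83 ± 0.11 on the log2 scale with its SE, limma adjusted p = 0.0022). Without a minimum *Ciart* did not pass (limma adjusted p = 0.054), whereas *Tef* did (0.036). *Ciart* had no known span and was not in the fit to reconstructed reads. The E-box repressor *Bhlhe40* (DEC1), which also answers to many stimuli outside the clock, rose from 6.48 and 9.26 RPKM to 13.1 and 12.2 RPKM, with 2.8 mM libraries that were far apart. The change on the log2 scale was 0.67 (SE 0.17, limma adjusted p = 0.024). *Bhlhe40* did not pass in limma with libraries centred on their medians (0.051), with the replicate block (0.052) or without a minimum (0.15). From reconstructed reads it passed as higher (0.71, voom adjusted p = 2.6e-04). The paralog *Bhlhe41* differed little, with 8.28 and 8.21 RPKM at 2.8 mM and 8.05 and 7.83 RPKM at 16.8 mM.

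*Hlf*, the remaining relative of *Dbp*, was at a low density of 0.275 and 0.280 RPKM at 2.8 mM and 0.110 and 0.0887 RPKM at 16.8 mM, or 35.8% of its value at 2.8 mM. This is nearly the same ratio as that of *Dbp*. *Nfil3*, the repressor that binds the same D-box as *Dbp*, *Tef* and *Hlf*, stood on the other side at 1.16 and 1.17 RPKM against 1.63 and 1.39 RPKM (0.27 on the log2 scale, limma adjusted p = 0.054). Neither of the 2 tested genes that control the turnover of PER and CRY proteins passed, the kinase *Csnk1d* standing at 97.4% and the ubiquitin ligase gene *Btrc* at 86.6% of the value at 2.8 mM. The corepressor *Ncor1*, the deacetylase *Hdac3* and the outputs *Nampt* and *Por* did not pass either, although *Por* (0.28, adjusted p = 0.0074) and *Nfil3* (0.35, adjusted p = 0.014) did in limma with libraries centred on their medians. From reconstructed reads, 14 of the 23 genes with a known span passed, 8 lower and 6 higher, against 42.3% of all transcripts fitted, 28.8% lower and 13.5% higher. Among them were *Hlf* (log2 fold change -1.48, adjusted p = 4.6e-07 from voom), *Rora* (-0.93, adjusted p = 4.1e-07), *Npas2* (0.74, adjusted p = 0.0011), *Nfil3* (0.37, adjusted p = 0.017) and *Ccrn4l* (0.69, adjusted p = 2.5e-04). *Ccrn4l* encodes nocturnin, a rhythmic output of the clock. Of the 7 turnover genes 3 passed with voom, all lower. They were *Fbxw11* (-0.55, voom adjusted p = 1.7e-04), *Gsk3b* (-0.32, adjusted p = 0.0080) and *Fbxl21* (-0.55, adjusted p = 0.040). *Ncor1* (-0.27, voom adjusted p = 0.024) and the deacetylase gene *Sirt1* (-0.30, adjusted p = 0.022) passed as lower too.

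**Figure D3:**
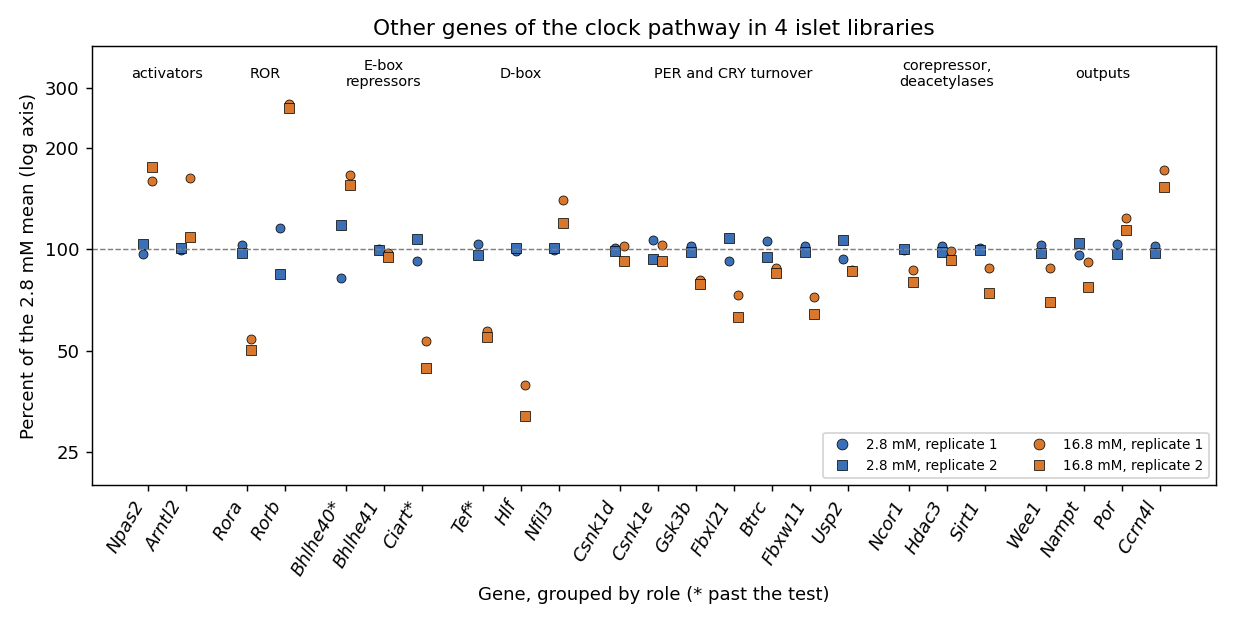
Level of 24 further clock genes in each library as a percent of the gene's mean at 2.8 mM glucose (log axis), grouped by role, with 2.8 mM libraries in blue, 16.8 mM libraries in orange and an asterisk on genes past the test. *Rora*, *Ciart*, *Tef* and *Hlf* stand between 35.8% and 56.0% on average at 16.8 mM, while *Npas2* stands at 167% and *Rorb* at 265% at no more than 0.0035 RPKM.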

How the data were processed

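Total RNA of whole islets was sequenced in 4 libraries after TruSeq preparation. As deposited by the authors, the data are 1 table of RPKM values per transcript, and all its sample columns were used. The submitters' processing notes name STAR, bedtools, DESeq and the mm9 build (NCBI build 37), while the methods describe alignment and exon counts for other libraries of the study only, and strand is not stated. Entries repeated with the same values entered once. On log2(RPKM + 0.5), limma 3.58.1 (R 4.3.3, variance trend, Benjamini-Hochberg adjustment at 0.05) was fitted to 7867 transcripts whose mean over the libraries reached 1 RPKM. The paper's DESeq needs counts, which were not used here. Depth was recovered from the steps of small RNA and low gene values, and reads were reconstructed over GENCODE M1 spans, known for 87.3% of transcripts, for limma's voom method. The longest coding span was used, so read numbers are estimates, those of *Per1* most of all. Fits without the trend, with quantile normalization, with median centring, with other minimums or pseudocounts, with 1 entry per gene, with the replicate block and without each library were tried. Scripts ran in Python 3.11.15 with pandas 2.3.3. All 10 clock genes are named, as are genes of the wider list past the test, paralogs and genes overlapping a clock gene. The wider list as first written held 2 more genes, which are not reported here. Other genes of the lists were named after their values were seen. The clock genes and lists were chosen with earlier results of these data known.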

Additional observations from a re-analysis of the deposited data

How the results depend on the processing

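*Dbp*, *Nr1d1* and *Nr1d2* stayed lower and past the threshold in all 15 alternatives with a test, with adjusted p-values up to 0.036, 0.049 and 0.036 (limma without a minimum giving the highest). *Cry2* passed in 11 of 15 and *Per1* in 5 of 16, and each kept its direction throughout, while *Clock* changed direction in 4 of 18 alternatives and never passed. Against 2628 transcripts past the threshold in the reported fit, 7384 passed with voom on reconstructed reads, 1191 at an adjusted p under 0.01, and 9966 with voom and the replicate block. Against 4 clock genes these were 9 with voom and 9 with voom and the block, and against 3 genes of the wider list they were 14 and 18. Voom adds genes of low density to those fitted. It also passed *Per1*, which the reported fit had tested without passing. The share past the threshold was 42.3% of 17468 transcripts with voom, against 33.4% of 7867 in the reported fit. Of the 6 cAMP response genes, 2 passed when 1 RPKM was asked in every library, since only those 2 were then tested. Leaving out each library in turn left 3 or 4 clock genes past the threshold. Of all calls, 838 were higher and 1790 lower with the deposited scaling, and 1662 and 2103 after median centring. The cause of these shifts was not tested.

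Deviations from the group means were correlated between libraries of one replicate number (0.31 across 7867 transcripts), but the labels do not say what the number marks. With the replicate block 4067 transcripts, 5 clock genes and 5 genes of the wider list passed, *Per1* being the added clock gene (adjusted p = 0.021 from limma). *Bhlhe40* did not pass with the block (0.052), while *Nfil3* (0.046), *Ncor1* (0.043), *Por* (0.031), *Sgk1* (0.013), the 6 exocrine markers and *Krt19* then did.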

Other observations

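*Per1* is also a target of cAMP and glucocorticoid signalling, and other genes of both kinds were looked up in the same fit. The 6 cAMP response genes rose at 16.8 mM glucose (limma on log2(RPKM + 0.5), adjusted p under 0.05). Of these, *Fos*, *Nr4a1*, *Crem* and *Sik1* were under 1 RPKM at 2.8 mM and reached the minimum for the test only through the 16.8 mM libraries, so no share of all transcripts is set beside the count. In the fit without a minimum all 6 passed as higher, against 2.96% of all 28047 transcripts. *Crem*, a CREB family member whose short form inhibits cAMP responses, rose from 0.890 and 0.815 RPKM to 3.88 and 3.54 RPKM. Its change was 1.64 on the log2 scale (adjusted p = 0.036 from limma without a minimum). *Sik1*, a kinase that restrains CREB coactivators and limits shifts of the clock, rose from 0.971 and 0.779 RPKM to 2.66 and 2.48 RPKM. Its change was 1.16 on the log2 scale (adjusted p = 0.038 from limma without a minimum). The immediate early genes *Fos* and *Egr1* changed by 2.05 and 2.48 on the same scale.

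Of 5 glucocorticoid response genes, 3 were tested and 2 fell, against 22.8% of all transcripts. *Tsc22d3* (GILZ) fell from 3.22 and 3.08 RPKM to 2.05 and 2.11 RPKM (-0.50 on the log2 scale, limma adjusted p = 0.0058). *Klf9*, a transcription factor that also cycles with the clock in several tissues, fell from 1.63 and 1.49 RPKM to 1.17 and 1.20 RPKM (-0.29 on the log2 scale, limma adjusted p = 0.032). *Fkbp5* was under the minimum for the test, at 0.872 and 0.838 RPKM against 0.469 and 0.411 RPKM. Without a minimum *Fkbp5* passed as lower (limma adjusted p = 0.041), where 6.17% of all transcripts did, and *Klf9* did not pass (0.074). With voom both passed as lower (adjusted p = 5.6e-07 for *Fkbp5* and 0.0043 for *Klf9*). The values of *Sgk1*, 2.93 and 2.07 RPKM against 4.01 and 3.08 RPKM, did not pass (adjusted p = 0.083 from limma). *Sgk1* did pass as higher with the replicate block (limma adjusted p = 0.013) and from reconstructed reads (voom adjusted p = 0.0066). *Zbtb16* was near 0, at 0.0018 and 0.0020 RPKM against 0.0028 and 0.0033 RPKM. With voom 4 of the 5 genes passed, 3 lower and 1 higher, against 28.8% and 13.5% of all transcripts fitted.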
